A study of Fragaria vesca with 3 samples.

Results

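Receptor-like kinases that carry a lectin domain or contact the cell wall were followed in binding data for FvSEP3, a SEPALLATA-type MADS-domain transcription factor of woodland strawberry (Fragaria vesca). Genes were taken from the deposited peak lists when the authors' description named a G-type lectin S-receptor-like kinase, an L-type lectin-domain receptor kinase, a wall-associated receptor kinase, a cysteine-rich receptor-like kinase or the receptor kinase FERONIA. This gave 134 genes of the 18238 that had a peak in either replicate. They divided into 67 G-type lectin, 27 L-type lectin, 24 wall-associated, 11 cysteine-rich and 5 FERONIA genes.

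The assay was DNA affinity purification sequencing, in which a transcription factor made outside the cell captures fragments of purified genomic DNA, so that chromatin is absent. The DNA came from wild-type fruit at 30 days post anthesis, with 2 IP samples described as biological replicates and 1 input library as the negative control. No other genotype, treatment or stage was compared, so the results describe where peaks lay and how far the replicates matched. Replicate 1 held 19298 peaks and replicate 2 held 21823, and the number of reads behind them is unknown. Positions follow the coordinates of these lists, with the build not stated in the sources used.

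Receptor-like kinases span the plasma membrane, with an extracellular domain that senses a ligand or the wall and an intracellular kinase domain that passes the signal on. In Arabidopsis, wall-associated kinases bind pectin and its fragments, FERONIA binds RALF peptides and takes part in cell wall integrity, growth and fertilisation, and several lectin and cysteine-rich receptor kinases act in immunity. In fruit, ripening involves dismantling of the pectin-rich wall, and SEPALLATA proteins act there as partners in MADS-domain complexes.

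The receptor kinase genes had 134 peaks at 104 genes in replicate 1 and 138 peaks at 110 genes in replicate 2. A peak was called shared when peaks of both replicates overlapped by at least 1 bp, and a gene was called shared when such peaks were assigned to it in both lists. By this rule 76 of the 134 genes (56.7%) were shared, against 58.6% of all genes with a peak. A further 4 genes had peaks in both lists that did not overlap, 24 had a peak in replicate 1 only and 30 in replicate 2 only. Of all 18238 genes, 14153 had a peak in replicate 1 and 15538 in replicate 2, so replicate 2 listed more genes there too. The share of reproduced genes was therefore close to that of all genes with a peak.

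Counted by peaks, 91 of 134 in replicate 1 overlapped a replicate 2 peak (67.9%, exact 95% interval 59.3 to 75.7), against 70.5% of the whole list. In replicate 2 the count was 87 of 138 (63.0%, exact 95% interval 54.4 to 71.1), against 62.0%. These intervals cover counting error only and treat peaks as independent, which peaks of the same gene or of near-identical copies may not be. Both contain the value of the whole list, and no test was made.

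The classes differed in their counts. All 5 FERONIA genes and 21 of 27 L-type lectin genes were shared, as were 34 of 67 G-type lectin, 11 of 24 wall-associated and 5 of 11 cysteine-rich genes. Peaks in replicate 1 only were listed for 15 G-type, 6 wall-associated, 2 L-type and 1 cysteine-rich gene, and in replicate 2 only for 15 G-type, 7 wall-associated, 5 cysteine-rich and 3 L-type genes. The differences between classes were not tested. The authors' merged list held 72 of the 134 genes (53.7%), against 58.3% of all genes with a peak.

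Fold enrichment, the deposited value by which the peak caller found a peak's signal to exceed background, was close to that of the whole lists. The median over receptor kinase peaks was 3.08 in replicate 1 and 3.10 in replicate 2, and the medians of the whole lists were 3.05 and 3.004. Single peaks ran from 2.07 to 4.81 in replicate 1 and from 2.08 to 5.18 in replicate 2, while the highest values of the whole lists were 7.21 and 7.56. Receptor kinase peaks without an overlapping peak in the other list had medians of 2.98 and 2.93, below the 3.10 and 3.18 of overlapping ones, an order that the whole lists also had. The median receptor kinase peak stood at percentile 51.9 of replicate 1 and percentile 56.7 of replicate 2, near the middle of each list.

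Among the classes, wall-associated kinase peaks had medians of 3.51 and 3.21 in replicates 1 and 2. FERONIA peaks had medians of 3.15 and 3.28, L-type lectin peaks of 3.05 and 3.12, and G-type lectin peaks of 3.07 and 2.84. Cysteine-rich kinase peaks had medians of 2.81 and 3.04. In both lists the wall-associated and FERONIA medians were the highest of the 5 classes, by differences that were not tested.

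The 76 shared genes held 90 pairs of overlapping peaks. The replicate 2 value divided by the replicate 1 value ran from 0.728 to 1.70 with a median of 0.991, and 66 pairs (73.3%) matched within 1.2-fold. Of all 13515 pairs at the same gene, 73.1% did. The overlap was 131 to 954 bp long with a median of 271.5 bp, and 83 of the 90 pairs had the same position class in both lists. A fold enrichment of 4 was exceeded in both replicates by 2 pairs, both at G-type lectin kinase promoters. The same count over all pairs is not given here, so these 2 have no value to be set against.

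**Figure D1:**
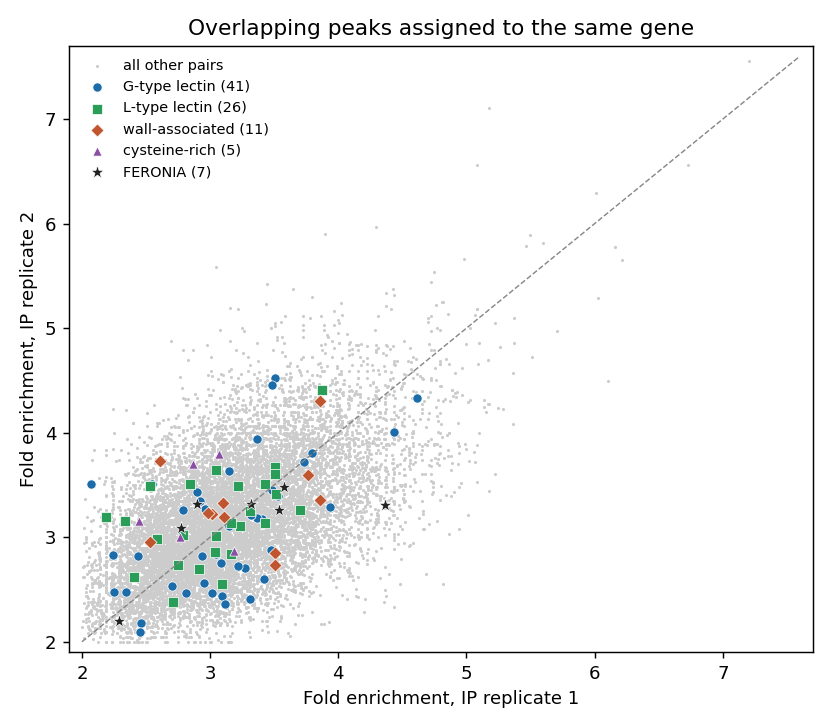
Fold enrichment in replicate 1 (horizontal axis) and replicate 2 (vertical axis) for the 90 overlapping peak pairs at receptor kinase genes, coloured by class, over the other same-gene pairs in grey. The receptor kinase points spread over the grey cloud around the dashed line of equal values, and 2 of them exceed 4 on both axes.

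Positions of the peaks departed from those of the whole lists in several classes of position. First-exon peaks made up 41 of 134 receptor kinase peaks in replicate 1 (30.6%), against 9.85% of the list, and 46 of 138 in replicate 2 (33.3%), against 10.5%. Promoter peaks, with a deposited distance to the gene start between −2000 and 0 bp, numbered 39 (29.1%, against 20.8%) and 36 (26.1%, against 20.7%). Introns held 9 peaks in replicate 1 (6.72%, against 18.5%) and 11 in replicate 2 (7.97%, against 17.9%).

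Taken over all 5 classes, the receptor kinase peaks thus lay more often in first exons and promoters, and less often in introns, than the peaks of either list; these differences were not tested. The first-exon share was above that of the list in every class and both replicates, from 2 of 10 cysteine-rich peaks in replicate 2 to 5 of 8 FERONIA peaks in each list. The promoter share was not: L-type peaks had 14.3% and 18.8%, and wall-associated peaks had 31.6% in replicate 1 but 4 of 20 in replicate 2. The intron share was below that of the list in every class except the cysteine-rich peaks of replicate 2, with 2 of 10 peaks. Intergenic peaks made up 17.9% and 15.9% of receptor kinase peaks and 22.2% of each whole list. None of the exon or intron peaks of the receptor kinase genes lay in a gene other than the one they were assigned to.

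**Figure D2:**
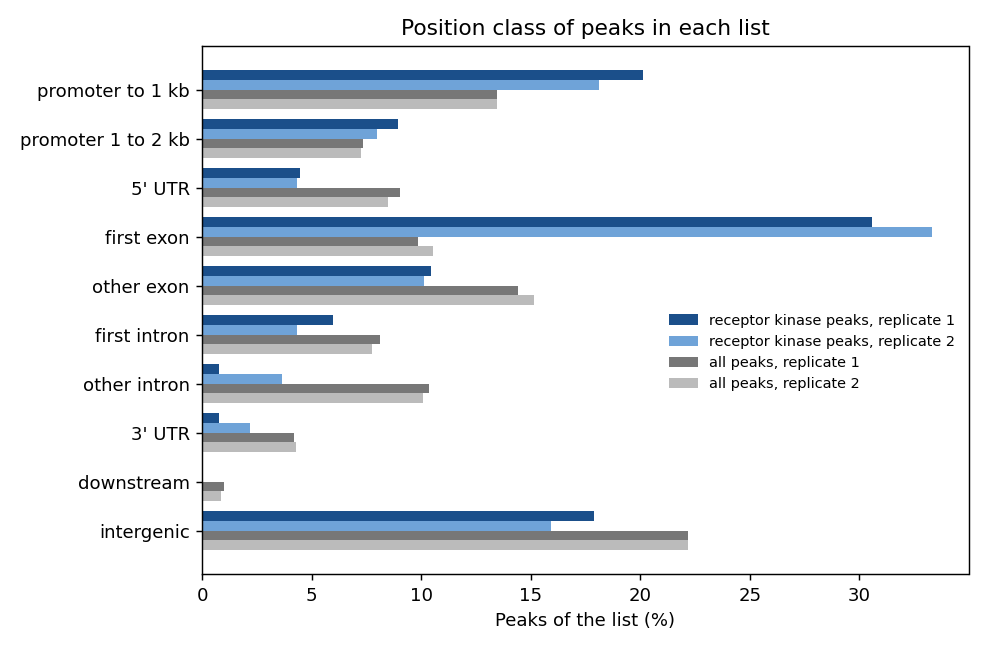
Share of peaks (percent, horizontal axis) in each position class of the authors' annotation, for receptor kinase peaks (blue) and all peaks (grey) of each replicate. First-exon bars reach 30.6% and 33.3% for receptor kinase peaks and 9.85% and 10.5% for all peaks.

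Part of the first-exon share lay in genes annotated with a single exon, where the first exon is the whole transcribed region. Such peaks numbered 22 in replicate 1 (16.4% of receptor kinase peaks, against 4.2% of the list) and 25 in replicate 2 (18.1%, against 4.63%). The first exon of a gene with several exons held 19 peaks (14.2%, against 5.65%) and 21 peaks (15.2%, against 5.89%). Over all 5 classes together, both kinds of first exon were therefore counted more often than in the whole lists. By class this did not always hold. Cysteine-rich kinases had no single-exon peak, while the other classes had shares above the lists. In genes with several exons, G-type first exons held 18.2% and 23.5% of the class's peaks, and cysteine-rich shares were also above the lists. FERONIA had no such peak. L-type peaks had 11.4% but 3.1% in replicate 2, below the list. Wall-associated peaks had 5.26% in replicate 1, below the list, and were above it in replicate 2. The lengths of exons and introns in receptor kinase genes, which also set how much of a gene each position class covers, were not analysed.

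Most single-exon peaks lay far into the gene, those of wall-associated kinases less so. Over all classes the median distances of such peaks from the gene start were 1206 and 1224 bp in the 2 lists, while single-exon peaks of the whole lists had medians of 651 and 656 bp. Beyond 1000 bp lay 14 of the 22 peaks and 16 of the 25. By class the medians were 1498 and 1618 bp for G-type, 1308 and 1225 bp for L-type and 1108 and 1050 bp for FERONIA peaks, but 595 and 355 bp for the 3 and 4 wall-associated peaks. Over all genes, 25 receptor kinase genes (18.7%, against 7.8% of genes with a peak) had a shared peak in a first exon by the replicate 1 annotation, among them 9 G-type, 9 L-type, 3 FERONIA, 2 wall-associated and 2 cysteine-rich genes. At 1 of the 25, the G-type gene FvH4_6g44242, the overlapping replicate 2 peak was annotated to the promoter.

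**Figure D3:**
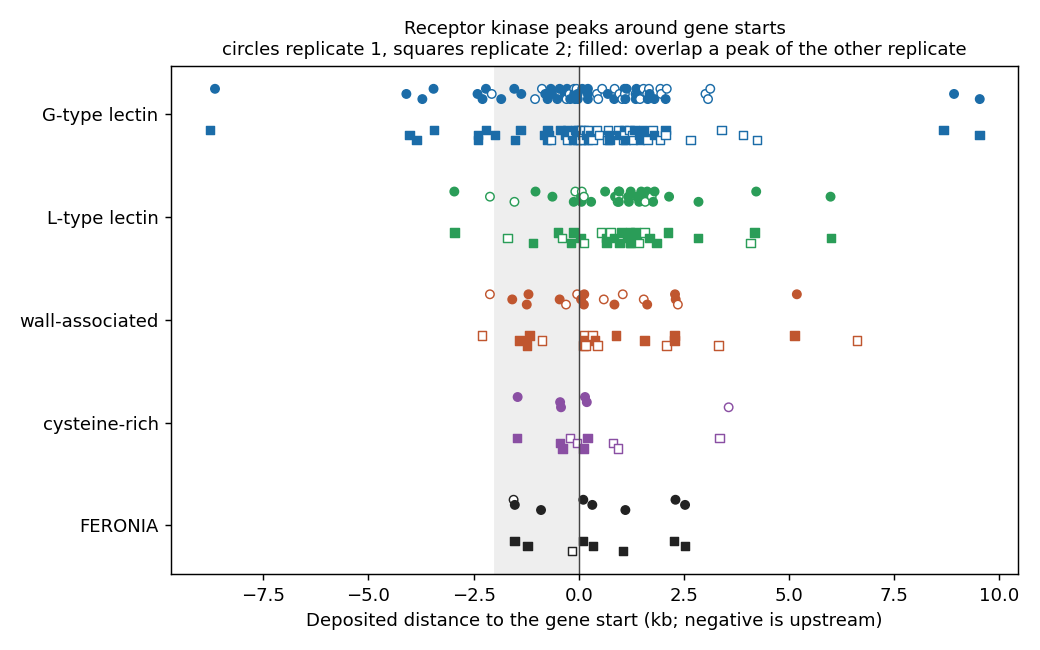
Deposited distance of receptor kinase peaks from the gene start (kb, horizontal axis) by class, with circles for replicate 1, squares for replicate 2, filled symbols for overlapping peaks and the promoter shaded. FERONIA and L-type lectin peaks include several beyond 1 kb inside the gene.

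FERONIA is a receptor of the CrRLK1L family, whose extracellular malectin-like domains are named after a lectin fold. All 5 genes with this description lay on chromosome 6. The peaks of 3 of them, FvH4_6g46570, FvH4_6g46580 and FvH4_6g46610, lay within 10.9 kb. FvH4_6g46570 and FvH4_6g46580 each had 2 shared peaks in their only exon, of which 1 lay more than 2000 bp into it.

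At FvH4_6g46570 fold enrichment was 3.32 in both replicates for the first of these peaks, at 1108 and 1050 bp from the gene start. The other had 2.77 in replicate 1 and 3.09 in replicate 2 (2.93 ± 0.224, SD, n = 2), at 2527 and 2524 bp. A promoter peak at −1549 bp with a fold enrichment of 2.99 was listed in replicate 1 only. At FvH4_6g46580 the peak near the start had 3.58 and 3.48 (3.53 ± 0.0725, SD, n = 2), at 108 and 100 bp. The other had 3.54 and 3.26 (3.40 ± 0.191, SD, n = 2), at 2299 and 2269 bp.

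The strongest FERONIA value belonged to the promoter of FvH4_6g46610, at position 35506246 to 35506807 of chromosome 6 in replicate 1. Its fold enrichment was 4.36 and 3.30 in the respective replicates (3.83 ± 0.750, SD, n = 2), at −897 and −1218 bp, although the peaks overlapped over 556 bp. The replicates thus differed more in fold enrichment at this gene than at the exon peaks of its neighbours. FvH4_6g46680 had a shared peak in its only exon with 2.90 and 3.32 (3.11 ± 0.297, SD, n = 2), at 322 and 338 bp.

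FvH4_6g09590, which lay apart from the others on the chromosome, had the weakest shared FERONIA peak, with 2.29 and 2.20 at −1520 and −1528 bp. A second promoter peak of this gene, with 3.26 at −165 bp, was listed in replicate 2 only. FERONIA promoters were therefore marked in both replicates at 2 genes and FERONIA exons at the other 3.

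The pathway around FERONIA was followed through 16 further genes with a peak whose descriptions named CrRLK1L relatives, RALF peptides, Rop exchange factors or respiratory burst oxidases. Of these, 10 (62.5%) were shared and 2 (12.5%) had promoter peaks in each replicate, against 58.6% and 13.7% of all genes with a peak. The strongest was FvH4_3g20780, named for the wall integrity receptor THESEUS 1, with 4.58 in replicate 1 and 3.44 in replicate 2 in intergenic DNA at −12484 bp. The same gene had a peak of 3.15 in both replicates in its 5' UTR.

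FvH4_4g19690, named for ANXUR1, which keeps pollen tubes intact in Arabidopsis, had 2.64 and 3.13 in its first exon. The RALF gene FvH4_4g18001 had 3.22 and 3.50 at −6370 bp, and FvH4_1g16140, named RALF-like 34, had 2.68 and 2.62 in its 3' UTR. The promoters marked in both replicates were those of the Rop exchange factor genes FvH4_6g31730, with 3.33 and 3.14, and FvH4_1g04400, with 2.58 and 2.85. These pathway genes, chosen for the text after their values were seen, thus had peaks of both low and high rank, as the FERONIA genes did.

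L-type lectin receptor kinases carry a legume-lectin-like extracellular domain, and in Arabidopsis members of this class sense extracellular nucleotides or act in defence against oomycetes and bacteria. The most frequent description was IX.1-like, with 16 genes, of which 13 were shared. The strongest shared L-type peak was at FvH4_4g18100, named S.6, with 3.87 in replicate 1 and 4.41 in replicate 2 (4.14 ± 0.377, SD, n = 2), in exon 2 of 2. FvH4_1g09832, named IX.1-like, had 3.51 and 3.67 (3.59 ± 0.117, SD, n = 2) in intergenic DNA at −2958 and −2955 bp.

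At FvH4_4g11641, named S.7, the shared peak lay in exon 4 of 4 with 3.51 and 3.61 (3.56 ± 0.0709, SD, n = 2). FvH4_6g26300, named VII.2, had 2 replicate 1 peaks, of 3.43 and 2.84, under a single replicate 2 peak of 3.51 in its only exon. None of these 4 best-ranked L-type peaks lay in a promoter.

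A group of IX.1-like genes, chosen after their values were seen, had a shared peak at a like distance inside a single exon. FvH4_1g19171 had 3.31 and 3.25 at 1436 and 1224 bp, and its neighbour FvH4_1g19180 had 3.05 and 3.65 at 1235 and 1224 bp. FvH4_3g23100 had 2.75 and 2.73 at 1380 and 1383 bp. FvH4_3g39140 had 3.43 and 3.14 at 1627 and 1681 bp.

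Over all IX.1-like genes, the single-exon peaks beyond 500 bp lay between 1235 and 1627 bp at 4 genes in replicate 1 and between 1224 and 1681 bp at 6 genes in replicate 2. In replicate 2 the additional genes were FvH4_3g19390 and FvH4_7g14950. Whether these peaks fall on the same stretch of the coding sequence was not tested, since no genome sequence was used here.

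First-exon peaks inside the gene, over a wider range, were also present in G-type genes named for Arabidopsis At1g11410, whose first exon is followed by others. They lay between 1088 and 2065 bp at 4 of 7 such genes in replicate 1 and between 689 and 2057 bp at 7 of 11 in replicate 2. Shared examples were also chosen after their values were seen. FvH4_7g19680 had 3.32 and 3.21 at 1088 and 1077 bp, and FvH4_3g03410 had 3.22 and 2.73 at 2065 and 2057 bp. FvH4_3g03310 had 2.79 and 3.26 at 1355 and 1330 bp, and FvH4_3g03242 had 2.81 and 2.47 at 1108 and 969 bp. These fold enrichment values lay on both sides of the list medians.

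G-type lectin receptor kinases share the extracellular layout of the S-locus receptor kinase, which in Brassica recognises self pollen. In Arabidopsis SD1-29 is the LORE receptor for bacterial hydroxy fatty acids. The most frequent G-type description was At4g27290, with 11 genes, of which 7 were shared and 4 had promoter peaks in both lists. The 2 G-type promoters that exceeded 4 in both replicates belonged to FvH4_7g14760, named SD2-2, and FvH4_6g44062, named At4g27290.

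At FvH4_7g14760 fold enrichment was 4.61 in replicate 1 and 4.33 in replicate 2 (4.47 ± 0.197, SD, n = 2), at −28 and −89 bp from the gene start (chromosome 7, 12977270 to 12977701 in replicate 1). At FvH4_6g44062 it was 4.44 and 4.01 (4.22 ± 0.303, SD, n = 2) at −278 and −274 bp (chromosome 6, 33980845 to 33981169 in replicate 1). A second promoter peak of FvH4_6g44062 had 3.15 and 3.11 (3.13 ± 0.0266, SD, n = 2) at −1533 and −1514 bp. Besides this gene, only FvH4_6g44107 had more than 1 overlapping pair of promoter peaks.

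The other best-ranked G-type genes had their peak elsewhere. FvH4_6g26420, named At2g19130, had 3.79 and 3.80 (3.80 ± 0.00759, SD, n = 2) at −1843 and −2205 bp. By this deposited distance the replicate 2 peak fell outside the promoter limit, although the peaks of the replicates overlapped over 725 bp. FvH4_1g23400, named RLK1, had 3.51 and 4.53 (4.02 ± 0.720, SD, n = 2) at 1640 and 1618 bp within its only exon.

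Wall-associated receptor kinases are anchored to pectin through their extracellular part. Their best-ranked shared peak, at FvH4_6g39032 (wall-associated receptor kinase-like 1), lay in intergenic DNA with 3.86 in replicate 1 and 4.30 in replicate 2 (4.08 ± 0.315, SD, n = 2). FvH4_3g10540 (kinase 2-like) had 3.77 and 3.60 (3.68 ± 0.119, SD, n = 2) in exon 2 of 2. FvH4_6g53142 (kinase 3-like) had 3.86 and 3.36 (3.61 ± 0.356, SD, n = 2) in its promoter, at −1236 and −1226 bp.

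FvH4_3g10530 (kinase 1-like) followed with 3.10 and 3.32 in intergenic DNA. The 7 unshared replicate 1 peaks of the class had a median of 3.67, and its 12 overlapping peaks a median of 3.31. In replicate 2 the corresponding medians were 3.12 and 3.23, so that this order was not repeated.

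The strongest receptor kinase peaks of all were of this kind. FvH4_6g15920 (kinase-like 1) had 5.18 at −869 bp, rank 34 of its list, in replicate 2 only. FvH4_3g10320 (kinase-like 16) had 4.81 at −303 bp, rank 96, in replicate 1 only. The G-type gene FvH4_2g05942, named At1g61500, had 4.68 at −875 bp, rank 169, in replicate 1 only.

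Each of these 3 promoter peaks had no overlapping peak in the other list, despite its rank. A peak of 4.01 at FvH4_6g39020 (kinase-like 1), in intergenic DNA at −2112 bp, was also listed in replicate 1 only. So was a peak of 4.01 in the 5' UTR of the L-type gene FvH4_3g09090, named VII.1. Another peak of FvH4_3g09090, in its first exon, was shared, with 2.79 and 3.02 in replicates 1 and 2. The promoter peak of FvH4_1g20600 (kinase-like 20, chosen after its values were seen), with 3.64 in replicate 1, overlapped a replicate 2 peak that was assigned to another gene, so the gene was not counted as shared.

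Cysteine-rich receptor-like kinases carry a pair of extracellular cysteine motifs and, in Arabidopsis, many respond to oxidative stress and pathogens. FvH4_2g29872, named kinase 29, had 3.07 in replicate 1 and 3.80 in replicate 2 (3.43 ± 0.516, SD, n = 2) in its first exon. FvH4_3g02774, named kinase 10, had 2.87 and 3.70 (3.28 ± 0.592, SD, n = 2) at −1453 and −1468 bp. FvH4_3g02772, also named kinase 10, had 3.19 and 2.87 (3.03 ± 0.227, SD, n = 2) at −422 and −443 bp.

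FvH4_1g07120, a further kinase 10 gene, had 2.76 and 3.001 (2.88 ± 0.169, SD, n = 2) in its first exon. In this class 10 genes had a peak in replicate 2 and 6 in replicate 1, while over all genes the counts were 15538 and 14153. No cysteine-rich kinase peak reached a fold enrichment of 4 in either list, the highest being 3.19 and 3.80.

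Promoter peaks in both replicates were present at 24 of the 134 genes (17.9%), against 13.7% of all genes with a peak. They belonged to 13 G-type, 3 L-type, 3 wall-associated, 3 cysteine-rich and 2 FERONIA genes. At 23 of the 24 the promoter peaks of the replicates overlapped. The exception was the G-type gene FvH4_2g26490, named At5g35370, with 2.25 at −203 bp in replicate 1 and 3.40 at −660 bp in replicate 2. Its replicate 1 peak did overlap, over 326 bp, another replicate 2 peak of 2.475, which was annotated to the first exon at 38 bp.

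Within 1000 bp in both replicates lay 16 of the 24, and within 500 bp lay 10. Values over all genes with promoter peaks in both replicates are not given for these narrower limits. Fold enrichment over the overlapping promoter peaks had medians of 3.15 and 3.19 and ran from 2.07 to 4.61 and from 2.10 to 4.33. The promoter values were therefore near those of the receptor kinase peaks at large.

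Among the G-type promoters not yet described, FvH4_6g07960, named At1g11410, had 3.93 in replicate 1 and 3.29 in replicate 2 (3.61 ± 0.457, SD, n = 2) at −332 and −311 bp. FvH4_6g44108, named B120, had 3.37 and 3.19 at −88 and −131 bp. FvH4_6g44063, named At4g27290, had 3.15 and 3.64 at −1366 and −1385 bp, beside a stronger peak of 3.48 and 4.45 in its 5' UTR.

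FvH4_6g44190 and FvH4_6g44107 carry the same name, At4g27290, and their promoter peaks lay next to the gene start. The former had 3.42 and 2.60 at −108 and −40 bp. The latter had replicate 1 peaks of 2.54 and 2.07 at −23 and −509 bp, both under a replicate 2 peak of 3.51 at −52 bp.

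The remaining G-type promoters belonged to genes named At1g11410, SD1-29, At1g61500 and At4g03230. FvH4_3g03390, named At1g11410, had 2.96 and 3.27 at −663 and −739 bp. The SD1-29 genes FvH4_3g03432 and FvH4_3g03450 had 3.12 and 2.36, and 2.94 and 2.82. FvH4_3g29580, named At1g61500, had 2.71 and 2.54.

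FvH4_6g44244, named At4g03230, had 2.45 and 2.10 at −796 and −816 bp. Of the L-type promoters, FvH4_6g15560, named VIII.1, had 3.52 and 3.41 (3.46 ± 0.0761, SD, n = 2) at −119 and −125 bp. FvH4_3g19361 had 3.17 and 3.14 at −626 and −489 bp, and FvH4_7g15082 had 2.34 and 3.16 at −1028 and −1089 bp, both named IX.1-like. The first of these L-type promoters was both the strongest and the nearest to its gene start.

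Beside FvH4_6g53142, the wall-associated promoters were those of FvH4_3g10285 (kinase 3-like, a partial entry), with 3.51 and 2.74, and FvH4_5g06860 (kinase-like 8), with 2.61 and 3.73. The cysteine-rich gene FvH4_2g29620, named kinase 2, had 2.44 and 3.16 at −443 and −389 bp. At these 3 genes the replicates differed by more than 1.2-fold.

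**Figure D4:**
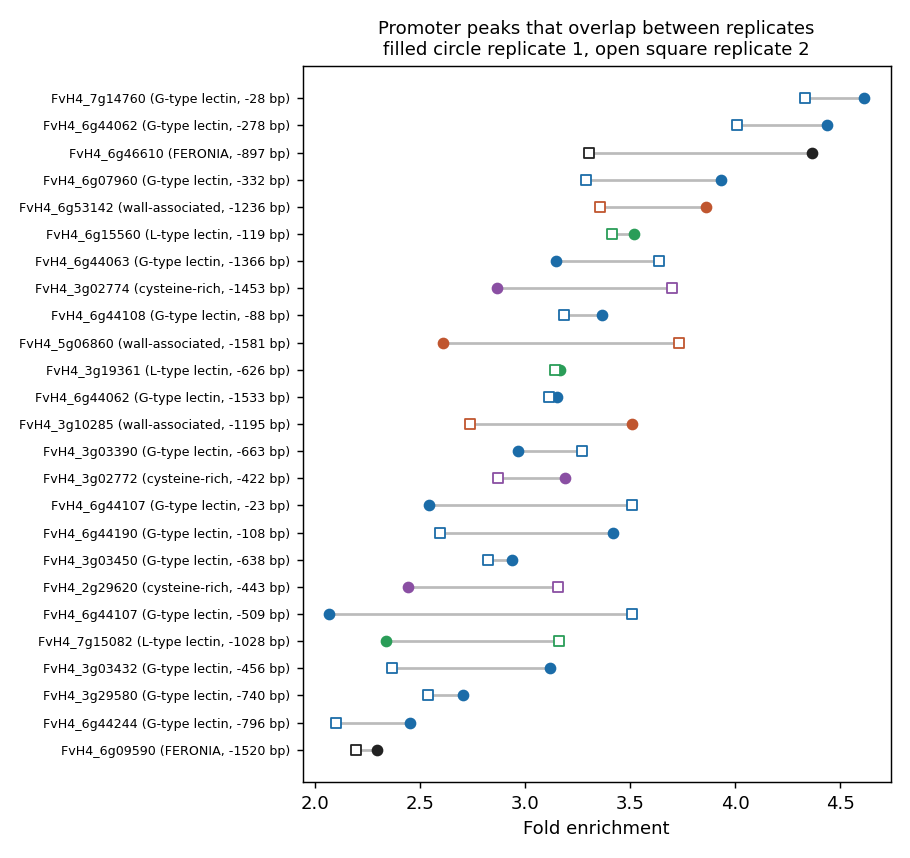
Fold enrichment (horizontal axis) of the 25 overlapping pairs of promoter peaks at 23 receptor kinase genes, 1 row per pair, coloured by class, with a filled circle for replicate 1 and an open square for replicate 2. The top rows, of FvH4_7g14760 and FvH4_6g44062, reach 4.61 and 4.44 in replicate 1 and 4.33 and 4.01 in replicate 2.

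Many of the genes lay close to one another. Chromosome 3 held 50 of the 134 (37.3%, against 16.5% of all genes with a peak) and chromosome 6 held 40 (29.9%, against 18.6%), and the other 5 chromosomes held 5 to 12 each. When members with locus numbers no more than 50 apart were joined, a definition chosen after the data were seen, 72 genes fell into 20 arrays, each of a single class. Only genes with a peak are visible to this count, so the arrays may hold further copies. The same count over all genes with a peak is not given here, so the 72 of 134 has no value to be set against.

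Array lengths are given from the first to the last peak. The largest array ran from FvH4_3g03301 to FvH4_3g03482 over 137.0 kb of chromosome 3. It held 12 G-type genes, of which 5 were shared and 3 had promoter peaks in both lists. The array from FvH4_6g44061 to FvH4_6g44109 covered 63.9 kb of chromosome 6 and held 8 G-type genes, of which 6 were shared and 4 had promoter peaks in both lists. It contained FvH4_6g44062, FvH4_6g44063, FvH4_6g44107 and FvH4_6g44108, described above. Chromosome 3 also held wall-associated arrays of 6 and 5 genes, with 3 shared genes in each.

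With a limit of 20 in place of 50, 61 genes fell into 22 arrays, the largest held 8 genes over 60.1 kb, and the 8-gene array of chromosome 6 split into 5 and 3 genes. With the limit of 50, 40 of 72 genes inside arrays (55.6%) and 36 of 62 outside (58.1%) were shared, and with the limit of 20 the order turned, to 59.0% inside and 54.8% outside. With the limit of 50, promoter peaks in both replicates were counted at 14 of the 72 and 10 of the 62. First exons held 30.9% and 36.4% of the peaks inside arrays and 30.3% and 29.5% of those outside, in replicates 1 and 2. Of the 134 genes, 52 carried the same protein identifier in the authors' annotation as another member, up to 4 genes for 1 identifier. How reads mapping to near-identical copies were treated is not stated in the sources used, so the values of neighbouring copies may not be independent.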

How the data were processed

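Peak lists for 2 IP replicates and the authors' merged list were used, and the input library was not analysed here on its own. BWA and MACS2 are named in the submitters' processing notes, without version, setting or genome build. Per the file headers, each replicate has its own list of peaks. Every peak has a fold enrichment, a ratio to background deposited by the authors, and −log10 p-values and −log10 q-values as deposited by the authors. The assigned gene, its distance and the position class are the authors' too. In the merged list 1 value column, the mean −log10 q, was not used.

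Overlaps, counts, medians, ranks and exact binomial intervals were computed with Python 3.11.15, pandas 2.3.3 and scipy 1.17.1. The overlap code was tested on simulated data and checked against bedtools 2.31.1, and each found 13597 shared replicate 1 peaks. With 2 lists of 1 condition there was no test between conditions, and mean ± SD describes the 2 deposited values. The members and lists were chosen with earlier results of these data known. Shares are set beside those of all genes or peaks listed, since a background of all annotated genes was not used here.

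The genes named were the 4 best-ranked shared genes of each class by mean rank of fold enrichment, all genes whose promoter had a peak in each list, all FERONIA genes, any gene with 3 or more shared peaks (0 were found), and the 5 with the strongest peak listed once. Alternatives were stricter peak and overlap limits, single replicates, the merged list, ranking by −log10 p, and promoters of 1 and 3 kb. Of the 134 genes, 55 matched the supplied RefSeq table of assembly FraVesHawaii_1.0 by protein identifier, which was not used for positions.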

Additional observations from a re-analysis of the deposited data

How the results depend on the processing

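Of 114 alternative values, 66 were unchanged and 48 moved, where unchanged means within 1.5 times for a count and within 1 SD of the 2 lists for a share or median. With peaks at or above the median fold enrichment of their list, and with a −log10 q of at least 10, the shared genes fell from 76 to 33 and 32 and those with promoter peaks in both lists from 24 to 9 and 8; fewer peaks enter under either limit. The 33 genes are 24.6% of the 134, against 27.3% of all genes with a peak. Under the same limits the overlap share was 53.6% and 51.5% in replicate 1 and 46.8% and 42.0% in replicate 2. Requiring overlap of 50% of both peaks gave 59.7% and 57.2%, and midpoints within 100 bp gave 56.0% and 53.6%. Apart from that of the 33 genes, values over all genes or peaks are not given under these limits and rules. The falls can therefore not be called particular to receptor kinase genes. Counts of shared genes stayed within 1.5 times of the 76, with 69 and 64 under these overlap rules, 72 in the merged list and 76 on chromosomes only. Those of promoter genes went from 24 to 16 with a promoter of 1 kb, at the limit of 1.5 times, and to 29 with 3 kb.

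Position shares of the shared replicate 1 peaks were 41.8% in exons, 31.9% in first exons, 30.8% in promoters, 18.7% intergenic, 1.10% in 3' UTRs, 3.30% in 5' UTRs and 4.40% in introns. In the merged list exons held 37.3%, first exons 28.9%, intergenic DNA 20.5% and 5' UTRs 4.82%. At or above the median fold enrichment, first exons held 29.7%, introns 5.41%, 5' UTRs 2.70% and 3' UTRs 0.00%. With a −log10 q of at least 10, exons held 44.1%, introns 5.88%, 5' UTRs 2.94% and 3' UTRs 0.00%. Without array members, an alternative chosen after seeing the data, promoters held 26.8%, intergenic DNA 21.9%, introns 7.32%, 5' UTRs 0.00% and 3' UTRs 2.44%. All peaks of either replicate alone gave ranges of 0.746% to 2.17% in 3' UTRs, 4.35% to 4.48% in 5' UTRs, 6.72% to 7.97% in introns, 26.1% to 29.1% in promoters and 15.9% to 17.9% in intergenic DNA. The first-exon share was 28.9% or higher in all of these settings. The causes of these changes were not tested.

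The median fold enrichment was 3.10 in replicate 1 and 3.18 in replicate 2 over shared peaks, and 3.12 over the merged list. Ranked by −log10 p, the median replicate 2 peak stood at percentile 60.2 of its list, against 56.7 by fold enrichment. Of 30 class values, 8 moved. No paired analysis was possible because both lists are of 1 condition and no test was made. The number of reads behind each peak is unknown, so a peak listed once cannot be told apart from one that fell just short of the authors' limit in the other list.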

Other observations

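Lectins and lectin-type receptors outside the 5 classes, including LysM proteins, which bind chitin and related sugars, numbered 37 genes with a peak. Of these, 22 (59.5%) were shared and 7 (18.9%) had promoter peaks in each replicate, against 58.6% and 13.7% of all genes with a peak. The words that defined the list also caught 1 cytoskeletal plectin entry, FvH4_3g38180, which is counted among both the 22 and the 7. The genes named here were chosen after their values were seen. FvH4_7g00450, a LysM domain-containing GPI-anchored protein 2 gene, had the best-ranked peak, with 4.04 in replicate 1 and 4.47 in replicate 2, in intergenic DNA at −11619 bp. The LysM receptor-like kinase 4 gene FvH4_3g31710 had 3.94 and 3.67 at −2758 bp, and FvH4_1g14190, of the same name, had 2.29 and 2.73 in its promoter. A shared first-exon peak was counted at 1 of the 37 (2.70%), against 7.8% of all genes with a peak.

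Further wall-linked genes, namely proline-rich receptor-like kinases, extensins and arabinogalactan proteins, numbered 47 with a peak. Of these, 28 (59.6%) were shared and 9 (19.1%) had promoter peaks in each replicate, against 58.6% and 13.7% of all genes with a peak. The proline-rich receptor-like kinase gene FvH4_2g08640, named PERK6, had 4.10 and 4.33 in an exon. Promoters were marked at FvH4_1g13460 (PERK4) with 3.90 and 3.69, at FvH4_4g34330 (PERK12) with 3.66 and 3.75 and at FvH4_6g54381 (PERK1) with 3.30 and 3.63. The promoter of FvH4_3g02571, a leucine-rich repeat extensin-like gene, had 4.44 and 3.94 at −298 bp. Shared first-exon peaks were counted at 6 of the 47 (12.8%), against the same 7.8%.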
